A study of Mus musculus with 12 samples.

Results

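The 31 Hox genes of the HoxA, HoxB, HoxC and HoxD clusters that carried counts were followed here in cultures of mouse dorsal root ganglia (DRG), the clusters of sensory neurons beside the spinal cord. They were taken as every gene name made of Hox, a cluster letter and a number, out of 17915 gene names in all, and no measured value entered the choice. All 31 stood in both deposited tables, that of the neurites and that of the soma, so none was in 1 table only. Of the 47 Hox transcripts behind them, 44 were in both tables, 2 in the soma table alone (ENSMUST00000142764 of Hoxa3 and ENSMUST00000140316 of Hoxa7) and 1 in the neurite table alone (ENSMUST00000134831 of Hoxa3). GENCODE lists 39 Hox genes in the mouse, and the other 8, Hoxa11, Hoxa13, Hoxb1, Hoxb13, Hoxc12, Hoxc13, Hoxd12 and Hoxd13, were not analysed here.

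The groups were GAR+/- neurites (het neurites), GAR+/+ neurites (WT neurites), GAR+/- soma (het soma) and GAR+/+ soma (WT soma), each with 3 libraries, numbered 1 to 3 in the labels, and all on the C57B6 background. GAR is a domain of nucleolin rich in glycine and arginine. Nucleolin binds RNA and is abundant in the nucleolus. Per the labels, each culture was made from the total DRGs of 1 adult mouse and grew for 3 days on a membrane with 1 µm pores. Such pores are meant to let neurites but not cell bodies through. The labels do not say whether libraries of the same number share a mouse, a culture or a day.

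Hox genes encode homeodomain transcription factors that give cells along the body axis their positional identity. Genes at the same place in different clusters form numbered paralog groups: those of low number are expressed from the hindbrain downwards and those of high number only at caudal levels. In spinal cord and sensory ganglia this order is laid down in the embryo, and groups 10 and 11 are known from lumbar and sacral levels. Hox proteins bind DNA together with cofactors of the Pbx and Meis families.

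On GRCm38 the measured genes lie in 4 clusters. The HoxA cluster lies on the minus strand of chromosome 6, with 9 of 11 genes measured. HoxB spans chr11:96194316-96368256 with 8 of 10 measured, HoxC chr15:102921103-103036852 with 7 of 9 and HoxD chr2:74668310-74765142 with 7 of 9, these 3 on the plus strand. The 250 bases upstream of 4 members' RefSeq start sites (GRCm38.p6, plus strand) are shown because their mRNAs stand out in what follows. Hoxd11 and Hoxd10 were among the members that were lowest in libraries numbered 1 relative to numbers 2 and 3. Hoxd8 had the highest level and Hoxb4 the highest count of the HoxB cluster. Capitals mark matches to TGATNNAT, the joint Pbx and Hox site, or TAATTA, a homeodomain core site, read on both strands and not overlapping here. The windows are chr2:74682073-74682322, chr2:74691641-74691890, chr2:74704365-74704614 and chr11:96318017-96318266.
Hoxd11: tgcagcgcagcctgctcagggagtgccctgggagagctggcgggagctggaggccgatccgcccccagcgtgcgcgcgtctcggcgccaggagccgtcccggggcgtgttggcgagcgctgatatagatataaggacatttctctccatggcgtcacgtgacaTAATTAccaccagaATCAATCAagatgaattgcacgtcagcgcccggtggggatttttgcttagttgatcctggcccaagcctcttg
Hoxd10: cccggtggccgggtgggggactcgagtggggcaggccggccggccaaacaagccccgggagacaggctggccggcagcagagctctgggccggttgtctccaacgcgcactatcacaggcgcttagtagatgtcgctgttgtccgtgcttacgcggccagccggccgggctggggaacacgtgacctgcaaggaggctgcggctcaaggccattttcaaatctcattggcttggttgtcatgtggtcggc
Hoxd8: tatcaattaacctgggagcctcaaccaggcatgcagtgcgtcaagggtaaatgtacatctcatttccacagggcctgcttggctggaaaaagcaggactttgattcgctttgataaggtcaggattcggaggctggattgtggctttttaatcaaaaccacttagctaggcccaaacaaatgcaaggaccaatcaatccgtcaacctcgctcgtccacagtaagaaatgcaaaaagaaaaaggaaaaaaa
Hoxb4: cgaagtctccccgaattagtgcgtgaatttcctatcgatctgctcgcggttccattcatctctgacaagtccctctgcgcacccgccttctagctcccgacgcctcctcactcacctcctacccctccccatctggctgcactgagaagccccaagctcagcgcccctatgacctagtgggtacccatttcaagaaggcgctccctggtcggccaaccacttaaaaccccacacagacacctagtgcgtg
Of these windows, only that of Hoxd11 held a match to either motif. Over the 19 RefSeq windows found for 17 members, TGATNNAT was in 3 (15.8%), against 7.68% of all 32851 windows of this length. TAATTA was in 2 (10.5%), against 4.84%, and both of these were windows of Hoxd11, so only 1 member carried it. The TATA box letters TATAAA, searched on both strands too, were in 3 Hox windows (15.8%) and in 12.4% of all windows, and in none of the 4 shown. Such a match is a description of these letters, not a binding site. The number of CG pairs was 20 in the Hoxd11 window, 20 in that of Hoxd10, 6 in that of Hoxd8 and 14 in that of Hoxb4.

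The libraries held 14965973 to 32434916 counts, of which 2689 to 6709 were Hox counts. Levels below are CPM, counts scaled to the library total with TMM factors, and 3 counts, the most that an observed 0 allows, were 0.0905 to 0.21 CPM. All 31 members passed the filter on low counts, as did 15990 of 16617 genes. Nucleolin itself (Ncl) stood at 332 to 426 CPM in het neurites, 322 to 463 in WT neurites, 251 to 290 in het soma and 218 to 239 in WT soma, and counts per transcript do not show which allele they come from. The 11 neuronal markers, among them Rbfox3, Uchl1 and Prph, summed to at least 8773 CPM in every library, and none was at 0. Markers of satellite glia, Schwann cells, fibroblasts and vessels were present in all libraries too, those of neurites included. A level in neurites is thus that of the whole library, not of neuronal processes alone.

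Hox mRNA was present from all 4 clusters and from paralog groups 1 to 11, and the summed level of the 31 genes was 186, 210 and 243 CPM in het neurites, 188, 210 and 189 in WT neurites, 202, 230 and 231 in het soma and 183, 198 and 210 in WT soma. HoxD genes made up 28.4% to 40.7% of this sum in a library, HoxA 25.3% to 32.8%, HoxB 20.7% to 32.1% and HoxC 8.67% to 14.2%. Between genes, levels are compared per kilobase of counted exon. On that scale Hoxd8 was highest, at 10.3 CPM per kilobase over the 12 libraries, followed by Hoxd1 at 9.80, Hoxb7 at 8.97, Hoxd9 at 8.71 and Hoxb4 at 7.09. The order among these is not firm: Hoxd8 ranged over 8.07 to 13.1 CPM per kilobase and Hoxd1 over 7.65 to 12.7, so these neighbours overlapped. Among the lowest was Hoxb8, at 0.265 CPM per kilobase.

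**Figure D1:**
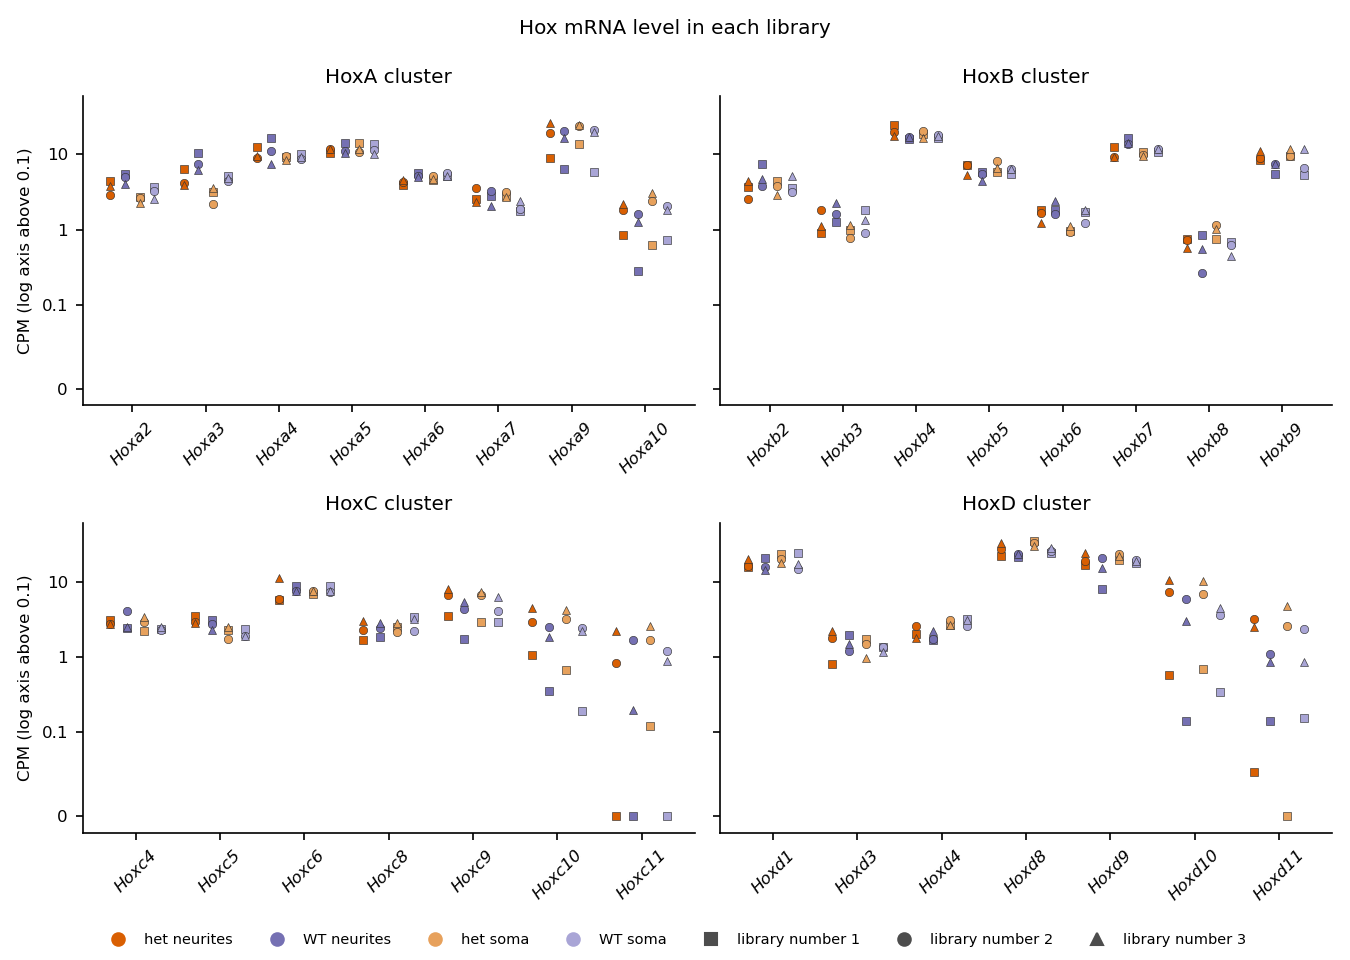
Level of 30 of the 31 Hox genes in each of the 12 libraries, in CPM on a log axis that is linear below 0.1, with 1 panel per cluster, colours for the groups and symbols for the library numbers. Squares, the libraries numbered 1, lie far below the circles and triangles for Hoxa10, Hoxc10, Hoxc11, Hoxd10 and Hoxd11, and among them for most genes of groups 1 to 8.

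In the HoxD cluster the 3 highest genes per kilobase were Hoxd8, Hoxd1 and Hoxd9. Hoxd8, a gene of the middle of the cluster, stood at 21.9, 26.8 and 32.7 CPM in het neurites, 21.3, 23.1 and 23.6 in WT neurites, 34.4, 32.4 and 30 in het soma and 24.1, 25.8 and 28 in WT soma. Het soma was above WT soma in every library, and the neurites of both genotypes overlapped. Hoxd1, at the 3′ end of the cluster and known in the mouse from pain-sensing neurons, stood at 15.8, 16.2 and 20.2 CPM in het neurites, 20.4, 15.4 and 14.2 in WT neurites, 23.6, 19.9 and 17.5 in het soma and 23.7, 14.8 and 17.3 in WT soma. No group was apart from the others for Hoxd1. Hoxd9 stood at 16.6, 18.8 and 23.9 CPM in het neurites, 7.91, 20.3 and 15 in WT neurites, 19.3, 23.5 and 21.7 in het soma and 17.9, 19.2 and 19 in WT soma, lowest in library 1 of each group.

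HoxA was led by Hoxa4, Hoxa5 and Hoxa6, at 6.29, 6.29 and 5.61 CPM per kilobase, which lie next to each other in the cluster. Hoxa4 had 12.4, 8.9 and 9.44 CPM in het neurites, 16.4, 11 and 7.39 in WT neurites, 9.14, 9.55 and 8.44 in het soma and 10, 8.6 and 9.13 in WT soma. Hoxa5, a gene of cervical and brachial levels, had 10.5, 11.9 and 11.9 CPM in het neurites, 13.9, 11.1 and 10.4 in WT neurites, 14.3, 10.8 and 11.8 in het soma and 13.8, 11.3 and 10 in WT soma. The groups overlapped for both. Hoxa6 was even across libraries, with 3.93, 4.22 and 4.54 CPM in het neurites, 5.6, 5.18 and 4.94 in WT neurites, 4.56, 5.2 and 4.68 in het soma and 5.15, 5.62 and 5.21 in WT soma, and only its neurites were apart by genotype, het below WT.

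HoxB was led by Hoxb7, Hoxb4 and Hoxb9, at 8.97, 7.09 and 3.34 CPM per kilobase. Hoxb7 had 12.5, 9.32 and 9.2 CPM in het neurites, 16.4, 13.5 and 14.2 in WT neurites, 10.6, 9.71 and 9.54 in het soma and 10.8, 11.7 and 11.6 in WT soma, with het below WT in each compartment without overlap. Hoxb4 had 24.3, 20 and 17.2 CPM in het neurites, 15.8, 16.9 and 16.8 in WT neurites, 18.3, 20.5 and 16.5 in het soma and 16.6, 17.9 and 17.5 in WT soma, with het above WT in every neurite library. Hoxb9 had 8.49, 8.79 and 11.2 CPM in het neurites, 5.39, 7.53 and 7.47 in WT neurites, 9.53, 9.4 and 11.7 in het soma and 5.31, 6.66 and 11.6 in WT soma, likewise apart by genotype in neurites only.

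HoxC, the lowest cluster in summed CPM, was led by Hoxc6, Hoxc9 and Hoxc8, at 3.17, 2.08 and 1.35 CPM per kilobase. Hoxc6, a gene of brachial levels, had 5.63, 5.83 and 11.3 CPM in het neurites, 8.74, 7.53 and 7.51 in WT neurites, 6.85, 7.42 and 7.52 in het soma and 8.69, 7.2 and 7.48 in WT soma. Hoxc9, known for thoracic identity in the mouse, had 3.45, 6.6 and 8 CPM in het neurites, 1.75, 4.3 and 5.29 in WT neurites, 2.93, 6.6 and 7.24 in het soma and 2.92, 4.1 and 6.19 in WT soma. Hoxc8 had 1.7, 2.26 and 3.01 CPM in het neurites, 1.82, 2.42 and 2.8 in WT neurites, 2.47, 2.17 and 2.84 in het soma and 3.35, 2.21 and 3.2 in WT soma. The genotypes overlapped in both compartments for all 3, and Hoxc9 was lowest in library 1 and highest in library 3 of each group.

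The caudal genes of groups 9 to 11 differed between the library numbers in all 4 groups, which was noticed once their values were seen. Group 10 and 11 mRNA, summed over Hoxa10, Hoxc10, Hoxc11, Hoxd10 and Hoxd11, was 2.55, 16.1 and 21.9 CPM in het neurites, 0.909, 12.7 and 7.2 in WT neurites, 2.11, 16.8 and 24.9 in het soma and 1.42, 11.7 and 10.1 in WT soma. Library 1 thus held 13.4% of the mean of libraries 2 and 3 in het neurites, 9.14% in WT neurites, 10.1% in het soma and 13% in WT soma. For the 4 genes of group 9 together this share was 61.2% in het neurites, 44.1% in WT neurites, 70.5% in het soma and 59.3% in WT soma, and for the 15 genes of groups 4 to 8 it was between 100% and 111%. Groups 1 to 3 were between 98.6% and 140%. The low values were thus those of groups 9 to 11, and appeared in all 3 clusters that carry group 10 or 11 genes here.

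**Figure D2:**
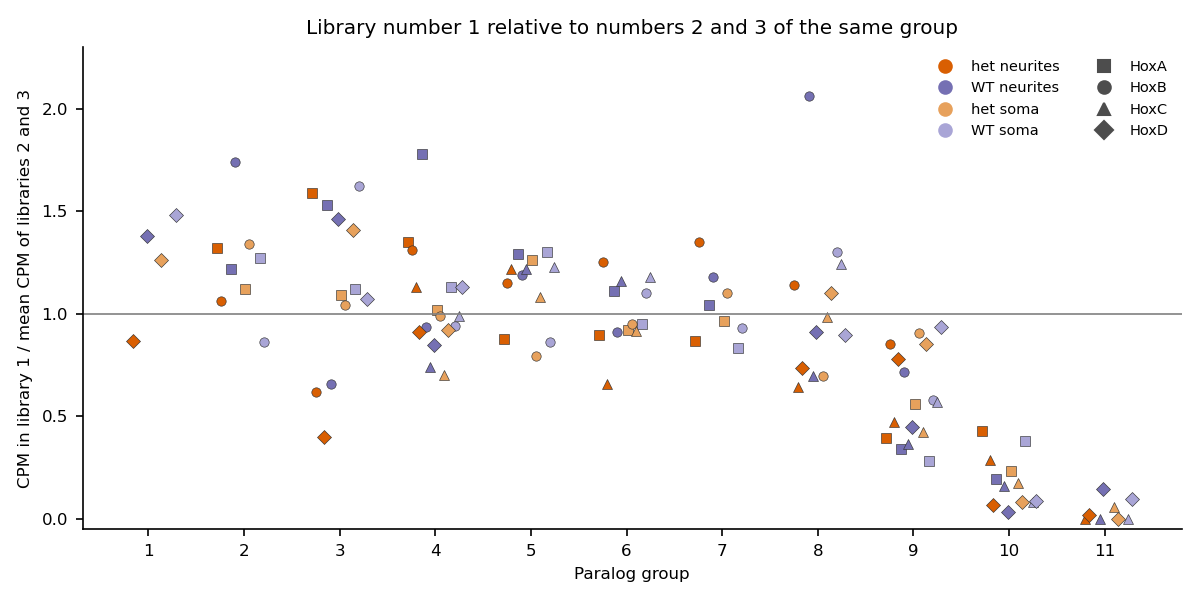
CPM in library 1 divided by the mean CPM of libraries 2 and 3 of the same group, for 30 of the 31 Hox genes, ordered by paralog group, with colours for the 4 groups of libraries and symbols for the clusters. Points scatter around 1 for groups 1 to 8, lie below it for group 9 and lie under 0.5 for groups 10 and 11, where points at 0 are genes with no count in library 1.

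Gene by gene, 8 members were lowest in library 1 of every group, Hoxa9, Hoxa10, Hoxc9, Hoxc10, Hoxc11, Hoxd9, Hoxd10 and Hoxd11, against 3.64% of all genes tested. None was lowest in library 2 of every group (5.68% of all genes) or in library 3 (1.49%). The remaining group 9 member, Hoxb9, was lowest in library 1 in all groups but het soma. Library 1 held under 0.5 of the mean of libraries 2 and 3 in every group for 5 members, those of groups 10 and 11, and for 20 genes in all, 0.125% of those tested. Among the other 15 were Pf4 and Ccl6, chemokine genes of platelets and macrophages that were in none of the marker lists. The rest of the 15 are not named here, and whether they share a cell type was not tested. Highest in library 1 of every group was 1 member, Hoxa2, against 3.33% of all genes.

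Hoxd10, known in the mouse for lumbar motor neuron identity (chr2:74691924-74695105, plus strand), shows the range. It stood at 0.584, 7.33 and 10.5 CPM in het neurites, 0.14, 5.85 and 3.04 in WT neurites, 0.694, 6.91 and 10.3 in het soma and 0.346, 3.64 and 4.41 in WT soma. Hoxd11, its neighbour (chr2:74679557-74687016), stood at 0.0531, 3.22 and 2.47 CPM in het neurites, 0.14, 1.08 and 0.856 in WT neurites, 0, 2.6 and 4.72 in het soma and 0.154, 2.36 and 0.846 in WT soma. Both were below 1 CPM in library 1 of each group, while Hoxd8 and Hoxd9, whose start sites follow in the 3′ direction, had at least 7.91 CPM there.

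Hoxc10 was likewise lowest in library 1 of each group, with 1.06, 2.92 and 4.5 CPM in het neurites, 0.35, 2.49 and 1.83 in WT neurites, 0.664, 3.22 and 4.26 in het soma and 0.192, 2.4 and 2.18 in WT soma. Its neighbour Hoxc11 had no count in library 1 of het neurites, WT neurites and WT soma and 0.121 CPM in that of het soma, and between 0.195 and 2.61 CPM in the other libraries. Hoxa10 had 0.849, 1.8 and 2.19 CPM in het neurites, 0.28, 1.61 and 1.28 in WT neurites, 0.634, 2.37 and 3.03 in het soma and 0.731, 2.05 and 1.83 in WT soma. Of the group 9 genes, Hoxa9 had the widest range in CPM, with 8.81, 19.1 and 25.7 CPM in het neurites, 6.3, 20.2 and 16.6 in WT neurites, 13.6, 23.5 and 24.8 in het soma and 5.73, 21 and 19.7 in WT soma. In bulk samples, fewer cells of a type and less RNA per cell cannot be told apart.

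**Figure D3:**
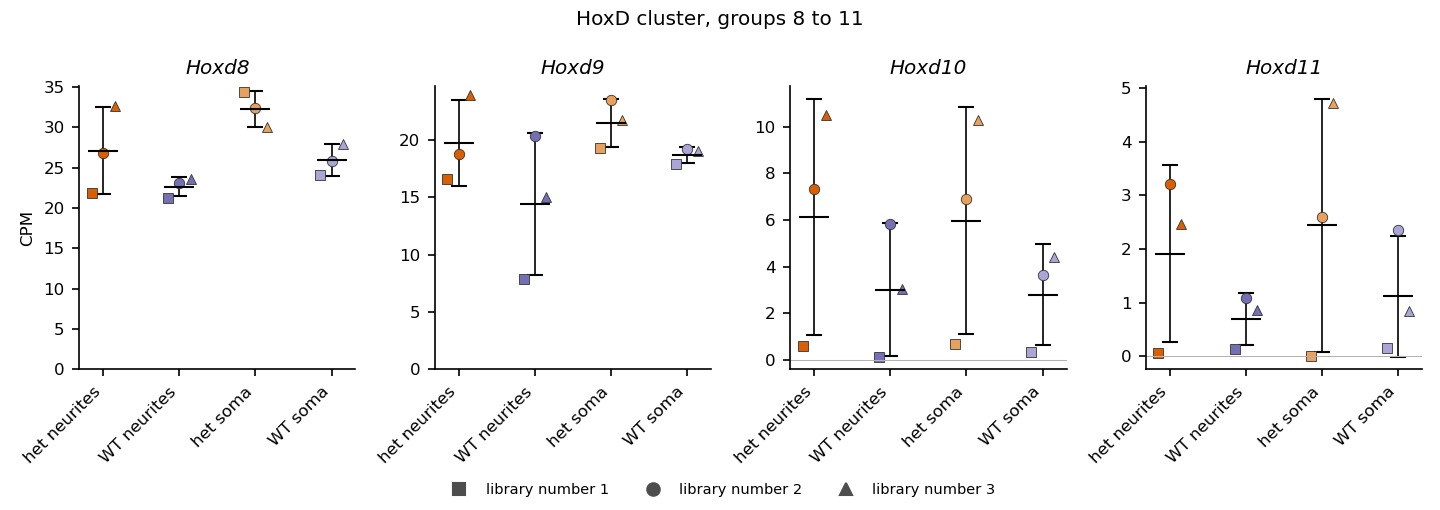
CPM of Hoxd8, Hoxd9, Hoxd10 and Hoxd11 in each library, from left to right het neurites, WT neurites, het soma and WT soma, with the mean (wide line) and SD (n = 3) of each group. Squares (library 1) fall near 0 for Hoxd10 and Hoxd11 in all 4 groups, and the SD of those genes spans most of the range from 0 to the highest library.

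Some cell type markers moved with the library number as well. The sum of 8 fibroblast and matrix markers was 2096, 1020 and 1037 CPM in het neurites, 4031, 1264 and 2825 in WT neurites, 1291, 836 and 1703 in het soma and 2798, 1431 and 2041 in WT soma, highest in library 1 of all groups but het soma. The 6 endothelium, pericyte and muscle markers tested of 8 listed summed to 1647, 998 and 1211 CPM in het neurites, 3278, 1314 and 1533 in WT neurites, 1072, 751 and 964 in het soma and 1886, 1024 and 1150 in WT soma. This sum was highest in library 1 of all 4 groups, but of its genes only the muscle marker Tagln was. Tagln stood at 2353, 603 and 738 CPM in WT neurites. The endothelial markers Cdh5 and Kdr were lowest in library 1 of WT soma, at 24.9, 26.3 and 48.2 CPM and 30.5, 34.6 and 63.6 CPM. The 2 macrophage markers tested of 6 listed, Cd68 and Adgre1, summed to 3.34, 4.49 and 7.46 CPM in het neurites, 3.15, 4.3 and 4.05 in WT neurites, 5.16, 6.02 and 10.3 in het soma and 5.46, 6 and 6.37 in WT soma, lowest in library 1 of every group. Neuronal markers were lowest in library 1 only in het neurites, where they summed to 10430, 13707 and 11738 CPM. The part of any of these in the Hox values was not tested.

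Between neurites and soma, averaged over both genotypes, 2 HoxA genes of low paralog number were higher in neurites and 1 HoxD gene was lower. Most of the 31 did not pass the test. Hoxa3 (chr6:52169062-52213336, minus strand), needed in the mouse for thymus, parathyroid and neck structures, was 1.64-fold higher in neurites, and Hoxa2 (chr6:52162417-52164831), the gene of hindbrain segment identity, 1.48-fold. Hoxd4 (chr2:74711929-74729160) was lower, with a log2 fold change of -0.51. By edgeR's quasi-likelihood test with Benjamini-Hochberg adjustment over 15990 genes, 12.2% of all genes passed the threshold of 0.05 in this comparison, 7.33% higher and 4.87% lower. The 3 of 31 Hox genes are close to that background, and the median log2 fold change of the members was -0.03, against 0.00 for all genes. No member had all 6 neurite libraries on 1 side of all 6 soma libraries, against 4.22% of all genes.

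Hoxa3 had 6.37, 4.14 and 3.88 CPM in het neurites, against 3.14, 2.21 and 3.53 in het soma, and 10.4, 7.47 and 6.15 CPM in WT neurites, against 5.15, 4.38 and 4.81 in WT soma. Within each genotype all neurite libraries lay above all soma libraries. Its log2 fold change was 0.71 ± 0.17 (SE, adjusted p = 0.0156), and it stayed past the threshold in all 12 fits that left out 1 library, with a highest adjusted p of 0.0471. Of its counted exons, 31.8% overlap antisense genes, Hoxaas2 and Hoxaas3 among them, and the sources used here do not give the strand setting of the counting.

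Hoxa2 had 4.35, 2.84 and 3.75 CPM in het neurites, against 2.72, 2.6 and 2.25 in het soma, and 5.53, 5.04 and 4.05 CPM in WT neurites, against 3.69, 3.21 and 2.58 in WT soma, again without overlap within a genotype. Its log2 fold change was 0.57 ± 0.15 (SE, adjusted p = 0.0266). It passed in 6 of the 12 fits without 1 library, and its adjusted p was highest, at 0.0731, without library 1 of het neurites. Of the counted exons of Hoxa2, 15% overlap Gm28308 on the same strand, as do 6.46% of those of Hoxa3.

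Hoxd4 had 2.02, 2.61 and 1.81 CPM in het neurites, against 2.65, 3.11 and 2.66 in het soma, and 1.68, 1.75 and 2.22 CPM in WT neurites, against 3.19, 2.56 and 3.12 in WT soma, lower in every neurite library of its genotype. Its log2 fold change was -0.51 ± 0.16 (SE, adjusted p = 0.0467), and it passed in 2 of those 12 fits, with a highest adjusted p of 0.119. It missed the threshold by limma voom, at -0.49 (adjusted p = 0.0549). Exons of Hoxd4 overlap those of Hoxd3 and Gm28230 on the same strand over 52.3% of their length, so its counts are uncertain. Without the 4 libraries numbered 1, none of the 3 passed, at adjusted p-values of 0.15 for Hoxa3, 0.158 for Hoxa2 and 0.308 for Hoxd4, with log2 fold changes of 0.53, 0.54 and -0.43, and 2.4% of all genes did.

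**Figure D4:**
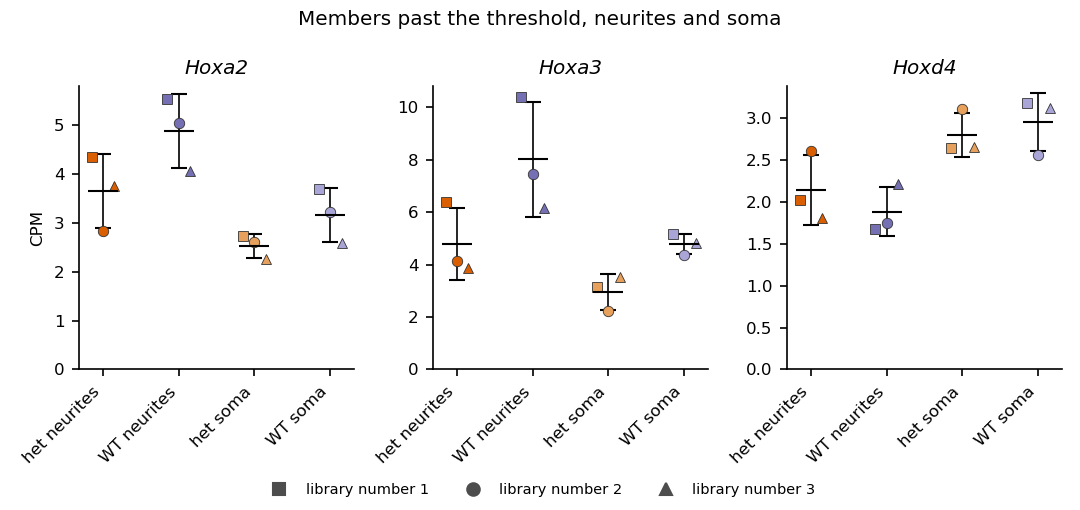
CPM of Hoxa2, Hoxa3 and Hoxd4 in each library, from left to right het neurites, WT neurites, het soma and WT soma, with the mean (wide line) and SD (n = 3) of each group. Hoxa2 and Hoxa3 lie higher and Hoxd4 lower in the neurites of each genotype than in its soma, by less than 1 on the log2 scale on average.

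Cell type markers differed between the compartments as well. Of 11 neuronal markers 6 were lower in neurites, led by Rbfox3, with a log2 fold change of -0.46 ± 0.09 (SE, adjusted p = 0.00422), and the sum of the 11 was 10430 to 13707 CPM in het neurites, 8773 to 12167 in WT neurites, 13350 to 16507 in het soma and 12102 to 14141 in WT soma. Of 8 satellite glia markers 5 were higher in neurites, led by Sox2 at 0.48 ± 0.08 (adjusted p = 0.00199), with sums of 1109 to 1406 CPM in het neurites, 1611 to 1712 in WT neurites, 1001 to 1096 in het soma and 1059 to 1429 in WT soma. Among the Schwann cell markers, Prx was higher in neurites (0.85 ± 0.17, adjusted p = 0.00516) and Ngfr was lower (-0.59 ± 0.10, adjusted p = 0.00185). The macrophage marker Cd68 was lower, at -0.61 ± 0.18 (adjusted p = 0.0403). No marker tested in these lists was at 0 in a library. Their part in the Hoxa2, Hoxa3 and Hoxd4 differences was not tested.

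Within 1 genotype, no Hox gene passed. In WT neurites against WT soma 0 of 31 were called, against 3.1% of all genes, 4 had an unadjusted p under 0.05 (19.6% of all genes), and the smallest adjusted p-values were 0.108 for Hoxa3 and 0.135 for Hoxa2, with log2 fold changes of 0.73 ± 0.24 and 0.61 ± 0.22 (SE). DESeq2 called 1 member there, Hoxa3, and 9.75% of the genes it adjusted, and limma voom called 0 members and 3.18% of all genes. With the library number as a block, for which same-numbered WT libraries deviated together, Hoxa3 passed too, at 0.72 ± 0.20 (adjusted p = 0.0307), as did 9.44% of all genes, and a block by culture called the same gene among 9.31% of all genes. In het neurites against het soma 0 of 31 were called, against 0.638% of all genes, 4 had an unadjusted p under 0.05 (14.4% of all genes), and Hoxa3 and Hoxa2 were again those with the smallest p, at 0.69 ± 0.25 (adjusted p = 0.222) and 0.52 ± 0.22 (adjusted p = 0.288). DESeq2 called 0 members and 4.83% of the genes it adjusted, and limma voom 0 members and 0.713% of all genes. The libraries of both compartments did not overlap for 5 members in WT, Hoxa2, Hoxa3 and Hoxb7 higher in neurites and Hoxd4 and Hoxd8 lower, and for 7 in het, Hoxa2, Hoxa3, Hoxb6 and Hoxc5 higher and Hoxa6, Hoxb8 and Hoxd4 lower, against 22.3% of all genes in each case.

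The comparison of genotypes asks whether heterozygosity at the GAR domain goes with a change in these mRNAs, and in neither compartment did a Hox gene pass the threshold. In het soma against WT soma, Hox log2 fold changes ran from -0.69 (Hoxa3) to 1.08 (Hoxd10) with a median of 0.13, against 0.01 for all genes, and 0 of 31 members and 0% of the 15990 genes were called. An unadjusted p under 0.05 was found for 4 members and for 9.16% of all genes. DESeq2 called 0 members and 2.39% of the genes it adjusted, and limma voom 0 members and 0% of all genes. Smallest in p were Hoxa3, at -0.69 ± 0.25 (SE, adjusted p = 0.336), and Hoxb6, at -0.66 ± 0.27 (adjusted p = 0.446). Hoxa3 had 3.14, 2.21 and 3.53 CPM in het soma, against 5.15, 4.38 and 4.81 in WT soma. Hoxb6 had 0.965, 0.932 and 1.1 CPM in het soma, against 1.69, 1.24 and 1.83 in WT soma. Neither overlapped between the genotypes, which held for 7 members, Hoxa7, Hoxb8, Hoxd8 and Hoxd9 higher in het and Hoxa3, Hoxb6 and Hoxb7 lower, and for 20.7% of all genes.

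Hoxd10 was higher in het than in WT soma at each library number, with 0.694 against 0.346 CPM in library 1, 6.91 against 3.64 in library 2 and 10.3 against 4.41 in library 3. Its log2 fold change of 1.08 ± 1.29 (SE, adjusted p = 0.86) came with a wide error, and without the 4 libraries numbered 1 it was 1.10 ± 0.32 (adjusted p = 0.287). Same-numbered soma libraries of both genotypes deviated together, and with the number as a block the change was 1.09 ± 0.28 (adjusted p = 0.0363), the only call among the 31, where 3.25% of all genes passed. On the soma table alone, 0 Hox genes passed, against 2.47% of all genes, and with the block Hoxd10 at 1.07 ± 0.18 (adjusted p = 0.00111) and Hoxa3 at -0.68 ± 0.17 (adjusted p = 0.0195) did, against 8.37% of all genes. Without the 4 libraries numbered 1 the soma table gave 1.10 ± 0.23 for Hoxd10 (adjusted p = 0.0454, 1.74% of all genes called).

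In het neurites against WT neurites, Hox log2 fold changes ran from -0.74 (Hoxa3) to 1.46 (Hoxd11) with a median of 0.07, against -0.01 for all genes. None of the 31 was called, against 3.27% of all genes, mostly lower in het, and an unadjusted p under 0.05 was found for 3 members and 20.9% of all genes. DESeq2 called 1 member, Hoxb7, and 8.68% of the genes it adjusted, and limma voom called 0 members and 3.48% of all genes. On the neurite table alone, where 30 members passed the filter, 0 of them and 0% of all genes were called. Hoxb7 was nearest the threshold, at -0.51 ± 0.14 (SE, adjusted p = 0.0666), followed by Hoxa3 at -0.74 ± 0.24 (adjusted p = 0.1). Hoxa3 stood at 6.37, 4.14 and 3.88 CPM in het neurites, against 10.4, 7.47 and 6.15 in WT neurites, and overlapped by 1 library of each genotype, while Hoxb7 did not overlap. Leaving out library 1 of het neurites brought Hoxb7 and Hoxa3 past the threshold, and leaving out library 2 of WT neurites brought Hoxb7 and Hoxd9 past it. The shares of all genes called in those fits are not given here. Hoxb4, Hoxb9, Hoxa6 and Hoxb7 were the 4 members without overlap, the first pair higher in het, against 18.3% of all genes. Of the caudal genes, Hoxd10 had a log2 fold change of 1.04 ± 1.31 and Hoxc10 of 0.85 ± 0.94. Both were higher in het at each library number, in neurites as in soma. The other genes of groups 10 and 11 were not so uniform. Hoxa10 was higher in het at 3 numbers in neurites and 2 in soma, Hoxc11 at 1 and 3, and Hoxd11 at 2 and 2. The labels do not say whether these numbers pair the libraries.

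**Figure D5:**
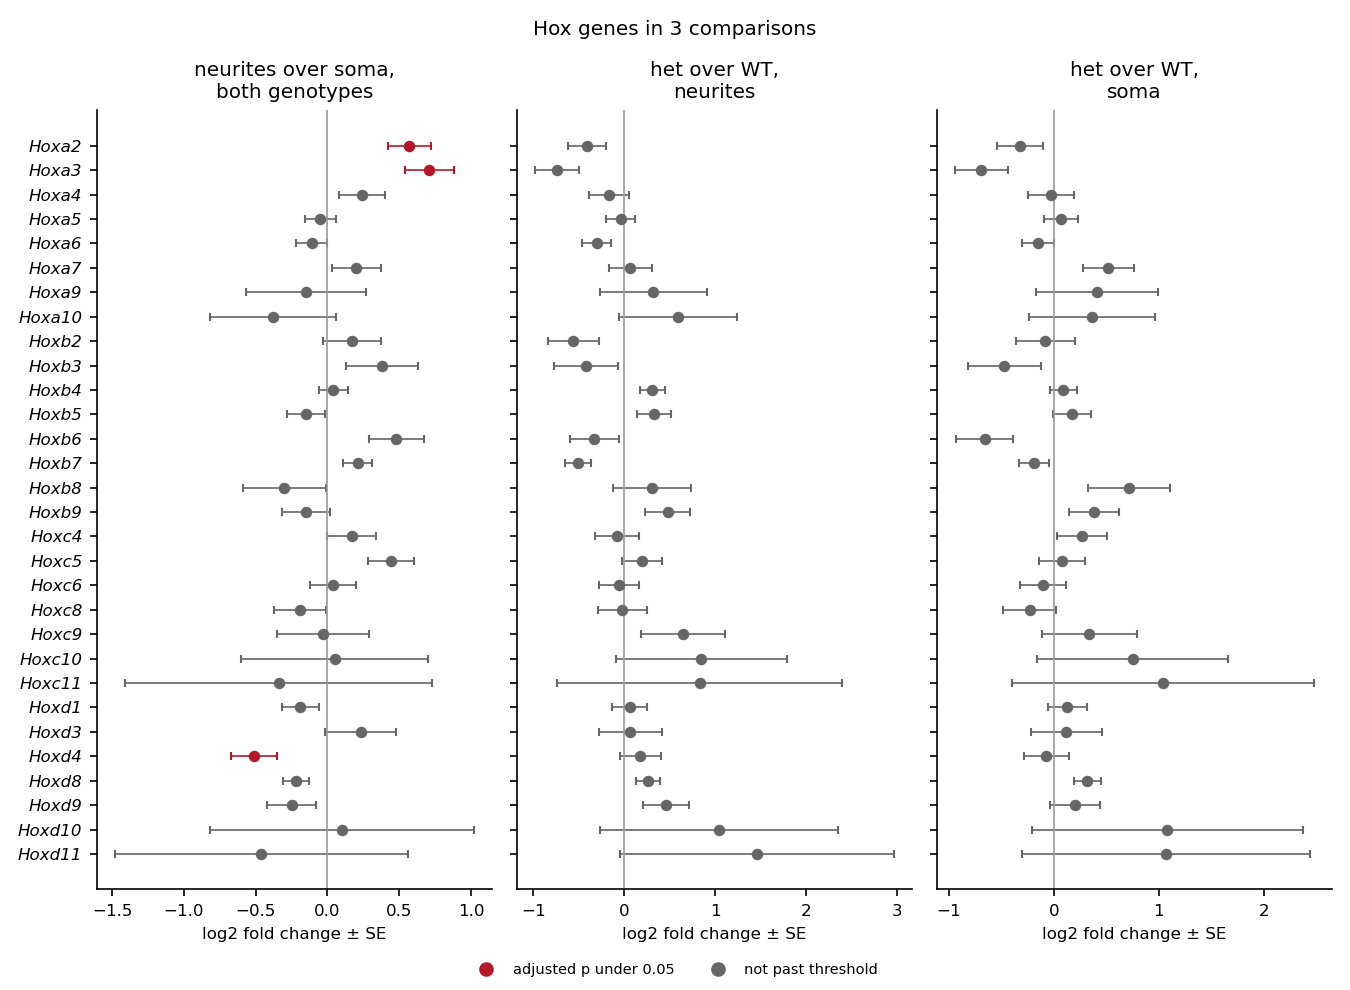
Log2 fold change with its SE (edgeR) of 30 of the 31 Hox genes, for neurites over soma in both genotypes, het over WT in neurites and het over WT in soma. Only Hoxa2, Hoxa3 and Hoxd4 in the left panel are past the threshold (red), and the SE is widest for Hoxc10, Hoxc11, Hoxd10 and Hoxd11.

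Between the genotypes, some markers of satellite glia, Schwann cells, neurons and proliferation passed in neurites by edgeR. In het soma against WT soma no marker of any list passed. In het neurites against WT neurites 4 of 8 satellite glia markers were lower, led by Fabp7 at -0.92 ± 0.15 (adjusted p = 0.0124), and 3 of 6 proliferation markers were lower, the 6 summing to 252 to 481 CPM in het neurites, 572 to 1027 in WT neurites, 181 to 267 in het soma and 456 to 670 in WT soma. Of 8 Schwann cell markers 2 were lower in het neurites, Egr2 at -0.94 ± 0.17 (adjusted p = 0.0203) and Prx at -1.09 ± 0.23 (adjusted p = 0.025), and 1 of 11 neuronal markers, Uchl1, was higher, at 0.46 ± 0.11 (adjusted p = 0.0403). The Schwann cell markers summed to 854 to 1181 CPM in het neurites, 1091 to 1185 in WT neurites, 1273 to 1432 in het soma and 1233 to 1403 in WT soma. No marker of these 4 lists was at 0 in a library, and their part in the Hox values was not tested. The interaction of genotype and compartment, which asks whether the neurite-to-soma difference depended on genotype, called 0 of 31 Hox genes and 0 of 15990 genes by edgeR, and an unadjusted p under 0.05 was found for 0 members and 1.26% of all genes. DESeq2 and limma voom called 0 members and 0% of all genes. Smallest in p were Hoxb7, at -0.32 ± 0.20 (SE, adjusted p = 1), and Hoxa7, at -0.45 ± 0.34. Hoxa7 stood at 2.55, 3.57 and 2.31 CPM in het neurites, 2.8, 3.3 and 2.06 in WT neurites, 2.81, 3.11 and 2.7 in het soma and 1.77, 1.9 and 2.36 in WT soma, so that WT soma was lowest on average.

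The authors' deposited table for soma, which tests transcripts, gives a false discovery rate under 0.05 to 4 of its 46 Hox transcripts and to 4.24% of its 35313 transcripts. In the authors' deposited table, Hoxd10 had a log2 fold change of het over WT of 1.07 (rate 8.569e-06), Hoxc10 0.834 (0.0343), 1 Hoxa9 transcript 0.556 (0.0428) and 1 Hoxa3 transcript -0.633 (0.0428). The authors' deposited table for neurites passes 1 of 45 Hox transcripts, Hoxd10 at 1.19 (0.0446), and 3.02% of its 32838 transcripts. Part of each Hoxc10 value rests on reads it may share with Hoxc5, whose counted exons overlap 8.7% of those of Hoxc10 on the same strand.

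Summed, the Hox cofactor genes, of which 8 of 9 listed were tested, varied little with the library number, at 98.3, 95.5 and 107 CPM in het neurites, 97.2, 108 and 91.8 in WT neurites, 97.5, 92.8 and 93.4 in het soma and 89.4, 94.8 and 88.2 in WT soma. Most regulators of Hox genes did not pass the test. Cdx and retinoic acid genes set Hox expression in the embryo, and 13 of 18 listed were tested. All 13 were retinoic acid genes, and no Cdx gene was tested. Of these, Rarb, a retinoic acid receptor, was lower in het neurites than in WT neurites, at -0.80 ± 0.18 (adjusted p = 0.0295), and no other passed. Of the 27 Polycomb and trithorax genes tested of 28 listed, which keep Hox genes silent or active, Rnf2 was higher in neurites over both genotypes (0.28 ± 0.07, adjusted p = 0.0179), and Cbx2 (-0.52 ± 0.10, adjusted p = 0.0224) and Phf19 (-1.42 ± 0.37, adjusted p = 0.0498) were lower in het neurites than in WT neurites.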

How the data were processed

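RNA of 12 libraries of mouse DRG cultures was sequenced by the submitters, after ribosomal depletion and with a stranded kit, per the labels' protocols. The submitters' processing notes name CASAVA 1.8.2, edgeR and mm10 (GRCm38). The sources used here give no aligner or counting program. Each compartment has 1 deposited table of raw counts per Ensembl transcript in 6 libraries. Per the file headers, the authors' comparison of het with WT is given there as a log2 fold change with its p-value and false discovery rate (FDR). Every listed transcript had at least 5 counts in at least 3 libraries. A further 24 per-sample columns were not used. Transcripts with no gene name took 0.574% to 0.694% of a library's counts and were left out.

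For each gene name, counts of the 31420 named transcripts found in both tables were added up, which made 16617 genes. After filterByExpr and TMM scaling, edgeR 4.0.16 (R 4.3.3) fitted a robust quasi-likelihood model with 1 mean per group to all 12 libraries. Tests were 2-sided, with Benjamini-Hochberg adjustment over 15990 genes and a threshold of 0.05. The SE is the log2 fold change over the square root of its F statistic. The biological coefficient of variation was 0.171 in het neurites, 0.213 in WT neurites, 0.12 in het soma and 0.144 in WT soma. Lengths and positions are from GENCODE M21. Limits from an observed 0 cover counting error only. Alternatives were DESeq2 1.42.0, voom in limma 3.58.1, other filters and scalings, replicate blocks, each library left out and, chosen after seeing the data, the 4 libraries numbered 1 left out. The fits were tested on simulated data.

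The members, lists and tests were chosen with earlier results of these data known. Values in every library are given for the 3 highest genes per kilobase in each cluster and, in each comparison, for members past the threshold or else the 2 with the smallest p. Those of Hoxd10, Hoxd11, Hoxc10, Hoxa10 and Hoxa9 were added after their values were seen. Of a list, at most 4 genes are named. Same-numbered libraries were taken as paired where each pair's deviations from the group means correlated above 0.1 over genes, as for WT neurites and WT soma (r 0.23 to 0.341) and het soma and WT soma (0.159 to 0.273). This pairing comes from the data, not from the labels. The separate results of 1 member and 2 genes of the other lists are not reported here.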

Additional observations from a re-analysis of the deposited data

How the results depend on the processing

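The 24 gene values named here had 506 alternative values, of which 472 kept their direction and their side of the threshold, 20 no longer passed, 12 newly passed and 2 changed sign. The sign changed for Hoxd11 in het soma against WT soma, at -0.83 by limma voom, and for Hoxc11 in het neurites against WT neurites, at -0.36 without library 3 of het neurites (-0.36 to 3.07 over the fits that left out 1 library). Both genes were at 0 or a few counts in libraries numbered 1, and the cause was not tested. With the replicate block (the library number as a term), Hox calls changed to 1 in WT neurites against WT soma (9.44% of all genes called). They changed to 1 in het soma against WT soma (3.25%), and to 4 (Hoxa3, Hoxb7, Hoxc9, Hoxd10) in het neurites against WT neurites (10.6%). In these neurites the same-numbered pairs did not all correlate above 0.1 (r -0.0373 to 0.224). This does not settle whether the numbers pair the samples. Fitted on its own table, each genotype comparison changed to 2 calls with the block, against 8.37% of all genes in soma and 5.78% in neurites. The block by culture gave 1 call in WT neurites against WT soma. The blocks changed no other count of calls. DESeq2 gave 1 call in WT neurites against WT soma and 1 in het neurites against WT neurites. For neurites against soma over both genotypes limma voom called 2 members higher and 0 lower, losing Hoxd4, against 7.05% and 5.14% of all genes. Leaving out 1 library gave 1 to 3 calls for neurites against soma over both genotypes, and 0 to 2 for het neurites against WT neurites. The shares of all genes called in these fits are not given here. Without the 4 libraries numbered 1, neurites against soma over both genotypes gave 0 calls (2.4% of all genes). Het soma against WT soma on its own table gave 1 without them (1.74%). Lengths from the longest transcript in place of the union moved the summed level in WT soma to 28.3 CPM per kilobase for HoxA and 11.3 for HoxC. Few counts limit the values of groups 10 and 11 in libraries numbered 1, at 0 to 23 counts a gene. They limit Hoxb8 too, at 4 to 30 counts in every library. Library 1 of het soma, the deepest at 32434916 counts, held 0 counts of Hoxd11.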

Other observations

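Genes beside the Hox clusters and RNAs made within them were looked at as well. Of the 14 neighbours tested of 24 listed, Cbx5, which encodes a heterochromatin protein and lies beside HoxC, was higher in WT neurites than in WT soma, with a log2 fold change of 0.58 ± 0.11 (SE, edgeR, adjusted p = 0.0157). It was also higher in neurites over both genotypes, at 0.42 ± 0.08 (adjusted p = 0.00433), and lower in het neurites than in WT neurites, at -0.59 ± 0.11 (adjusted p = 0.0215). No other neighbour passed in any of the 6 comparisons. Of 17 listed RNAs of the clusters that are not Hox mRNAs, 6 were tested and 0 passed in any of these. The nearest was Hoxb3os, an RNA antisense to Hoxb3, at -0.76 ± 0.25 in het neurites against WT neurites (adjusted p = 0.0977). Hotairm1, an RNA of the HoxA cluster, had a log2 fold change of -0.63 ± 0.28 for neurites against soma over both genotypes (adjusted p = 0.155). Summed, these 6 RNAs gave 13.7 to 16.6 CPM in het neurites, 13.5 to 17.3 in WT neurites, 14.4 to 19.1 in het soma and 13.7 to 18.4 in WT soma.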
